A study of Mus musculus with 29 samples.

Results

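The genes described here are the 93 nuclear-encoded oxidative phosphorylation genes among the 38924 gene rows of the count table. They were picked by name: protein-coding mouse genes whose symbol begins with Nduf, Uqcr, Cox4, Cox5, Cox6, Cox7, Cox8 or Atp5, and the genes Sdha, Sdhb, Sdhc and Sdhd. This list was set with earlier results of these data known. By name, 46 belong to complex I, 4 to complex II, 8 to complex III, 18 to complex IV and 17 to complex V. The Nduf prefix also takes in assembly factors (the Ndufaf genes), which help to build complex I without being part of it. Of the 93 genes, 85 had enough counts to be tested in every comparison, 2 (Cox6a2 and Cox4i2) in some, and 6 (Cox7a1, Atp5g2, Cox7b2, Cox8b, Ndufa4l2 and Cox8c) in none.

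Oxidative phosphorylation is carried out in the inner mitochondrial membrane. Complexes I and II pass electrons from NADH and succinate to ubiquinone, complex III hands them to cytochrome c, and complex IV, cytochrome c oxidase, gives them to oxygen. Complexes I, III and IV pump protons, and complex V, the ATP synthase, makes ATP as the protons flow back. Most subunits are encoded in the nucleus and a small core by the mitochondrial genome. Blood stem cells at rest are known to lean on glycolysis, and their entry into cycle and differentiation is known to go with more mitochondrial respiration.

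RNA was sequenced from 29 libraries of bone marrow cells of C57BL/6 mice, all young and taken 6 weeks after treatment with pIpC, which is used to switch on Mx1-Cre, a recombinase active in blood cells and in several other tissues. Mice were Dnmt3a mutant or control; Dnmt3a is a DNA methyltransferase, and the labels do not name the allele. Long-term stem cells (LT-HSC) gave 3 mutant and 4 control libraries, short-term stem cells (ST-HSC) 4 mutant and 3 control, the myeloid-biased multipotent progenitors MPP3 4 mutant and 3 control, and the lymphoid-biased progenitors MPP4 4 mutant and 4 control. Controls received pIpC as well, as far as the labels say. The mutant ST-HSC titles name Dnmt3a without the word for mutant, and the letter in their descriptions was used with the title. The labels do not tie replicates to separate animals, and p-values measure only the spread between these libraries, which may be technical.

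Libraries held 6133994 to 10374672 counts and 14302 to 17905 genes with a count; mutant ST-HSC replicate 2 and mutant MPP3 replicate 1 were the only ones under 15000 genes. Levels are CPM, counts scaled to a library of fixed size, after TMM scaling over the 29 libraries. Dnmt3a RNA overlapped between genotypes, at 92.3 to 222 CPM in mutant and 82.0 to 167 CPM in control libraries, so whole-gene counts do not check the genotype labels. Summed MPP3 markers lay at 3940 to 10265 CPM in mutant MPP3 and 5912 to 8499 CPM in control MPP3 libraries, against at most 1187 CPM elsewhere, and summed MPP4 markers at 1149 to 1491 CPM in MPP4 libraries against at most 396 CPM elsewhere. Markers of other cell types differed between libraries. Summed late neutrophil markers reached 11820, 3873, 1660 and 47.7 CPM in control LT-HSC libraries 1 to 4, against at most 441 CPM in mutant LT-HSC libraries, and all 9 markers had counts in both groups. Red cell markers summed to 28428, 5414, 8466 and 415 CPM in the same control LT-HSC libraries, against 267 to 720 CPM in mutant LT-HSC libraries. Antibody-secreting cell markers summed to 1344 to 15032 CPM in mutant MPP3 and 1081 to 6302 CPM in control MPP3 libraries, against 69.3 to 263 CPM in mutant ST-HSC and 82.0 to 1743 CPM in control ST-HSC libraries.

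The 85 members tested everywhere had a median level of 25.2 CPM and a median of 198 counts per library, and 80 members had at least 10 counts in all 29 libraries. The median coefficient of variation between replicates was 26.6% to 40.6% by group, against 6.5% to 7.8% from counting alone, so the spread between libraries and not depth limited most comparisons. Over the 29 libraries, the members' median log2 deviation went with that of cytosolic and mitochondrial ribosomal protein genes (Pearson r = 0.69 and 0.77). It fell with the number of genes with a count (Pearson r = -0.49, but Spearman rho = -0.37). The causes were not tested.

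Complex V held the largest share of the members' summed CPM, a median of 42.5% over libraries (36.7% to 49.2%), followed by complex I with 23.4%, complex IV with 17.6%, complex II with 8.03% and complex III with 6.70%. Atp5b, the catalytic beta subunit of the ATP synthase, alone held a median of 15.4% (9.78% to 23.6%), and Atp5a1, the alpha subunit, 7.87%. Levels between genes were compared per kilobase of exon. On that scale Atp5b stood first at 139 CPM per kb, followed by Cox8a at 136, Atp5a1 at 100.1, Cox7c at 92.2 and Cox6a1 at 77.3 CPM per kb. With the length of the principal transcript in place of the union of exons, Cox7c moved to second place at 193 CPM per kb, behind Atp5b at 307 CPM per kb and ahead of Cox8a at 153 CPM per kb.

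The members' summed level was 4906, 4218, 4011 and 4397 CPM in mutant MPP3 and 3600, 4589 and 4334 CPM in control MPP3 libraries. In MPP4 it was 3642, 3797, 4887 and 3202 CPM in mutant and 3664, 4209, 3257 and 3835 CPM in control libraries. In ST-HSC it was 3710, 4585, 4184 and 3052 CPM in mutant and 3294, 2910 and 2974 CPM in control libraries. In LT-HSC it was 3101, 3843 and 3241 CPM in mutant and 4275, 3111, 3346 and 3028 CPM in control libraries. Every mutant MPP3 library lay above every mutant LT-HSC library, and every control MPP3 library above every control ST-HSC library; mutant and control libraries of a population overlapped in all 4 populations. In bulk samples such as these, a smaller number of cells of a type and less RNA per cell cannot be told apart.

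**Figure D1:**
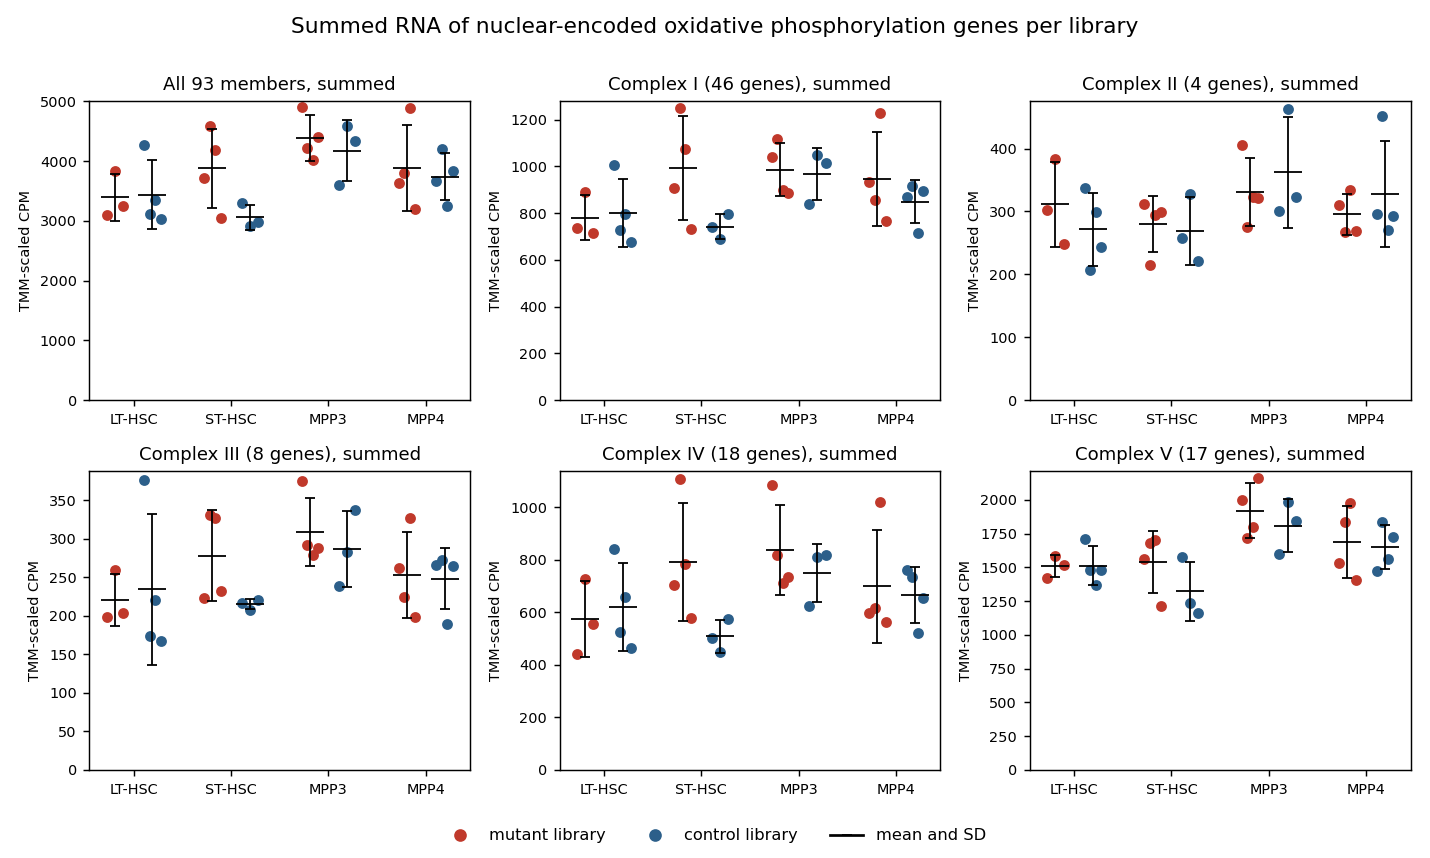
Summed TMM-scaled CPM of the members of each complex and of all members in each of the 29 libraries (points), by population on the horizontal axis, with mutant left of control; horizontal lines are group means and whiskers 1 SD. The all-member sums of mutant MPP3 (4011 to 4906 CPM) lie above those of mutant LT-HSC (3101 to 3843 CPM), and mutant and control points overlap in every population.

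Of the 85 members tested everywhere, 32 had their highest group mean in mutant MPP3, 20 in mutant ST-HSC and 18 in control MPP3, while 42 had their lowest group mean in control ST-HSC. Among the core genes of complex I, Ndufs1, a subunit of the electron input module, ranged between group means of 40.5 ± 1.72 CPM in control MPP3 and 25.2 ± 13.6 CPM in control ST-HSC (SD, n = 3 each). Sdha, the flavoprotein of complex II, had its extremes in groups where few members had theirs. Its highest group mean was 184 ± 37.1 CPM in mutant LT-HSC (SD, n = 3) and its lowest 144 ± 51.7 CPM in mutant ST-HSC (SD, n = 4). In control MPP3 against control LT-HSC and against control ST-HSC, all 4 complex II members, Sdha among them, were above 0, as most members were. Uqcrfs1, the Rieske iron-sulfur protein of complex III, had its highest mean in control MPP3, 40.1 ± 8.42 CPM, and its lowest in mutant LT-HSC, 23.7 ± 8.46 CPM (SD, n = 3 each). Atp5o, a stalk subunit of the ATP synthase, averaged 63.0 ± 6.95 CPM in mutant MPP3 (SD, n = 4) and 27.8 ± 6.59 CPM in control ST-HSC (SD, n = 3). These extremes were picked from 8 group means and carry no test.

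**Figure D2:**
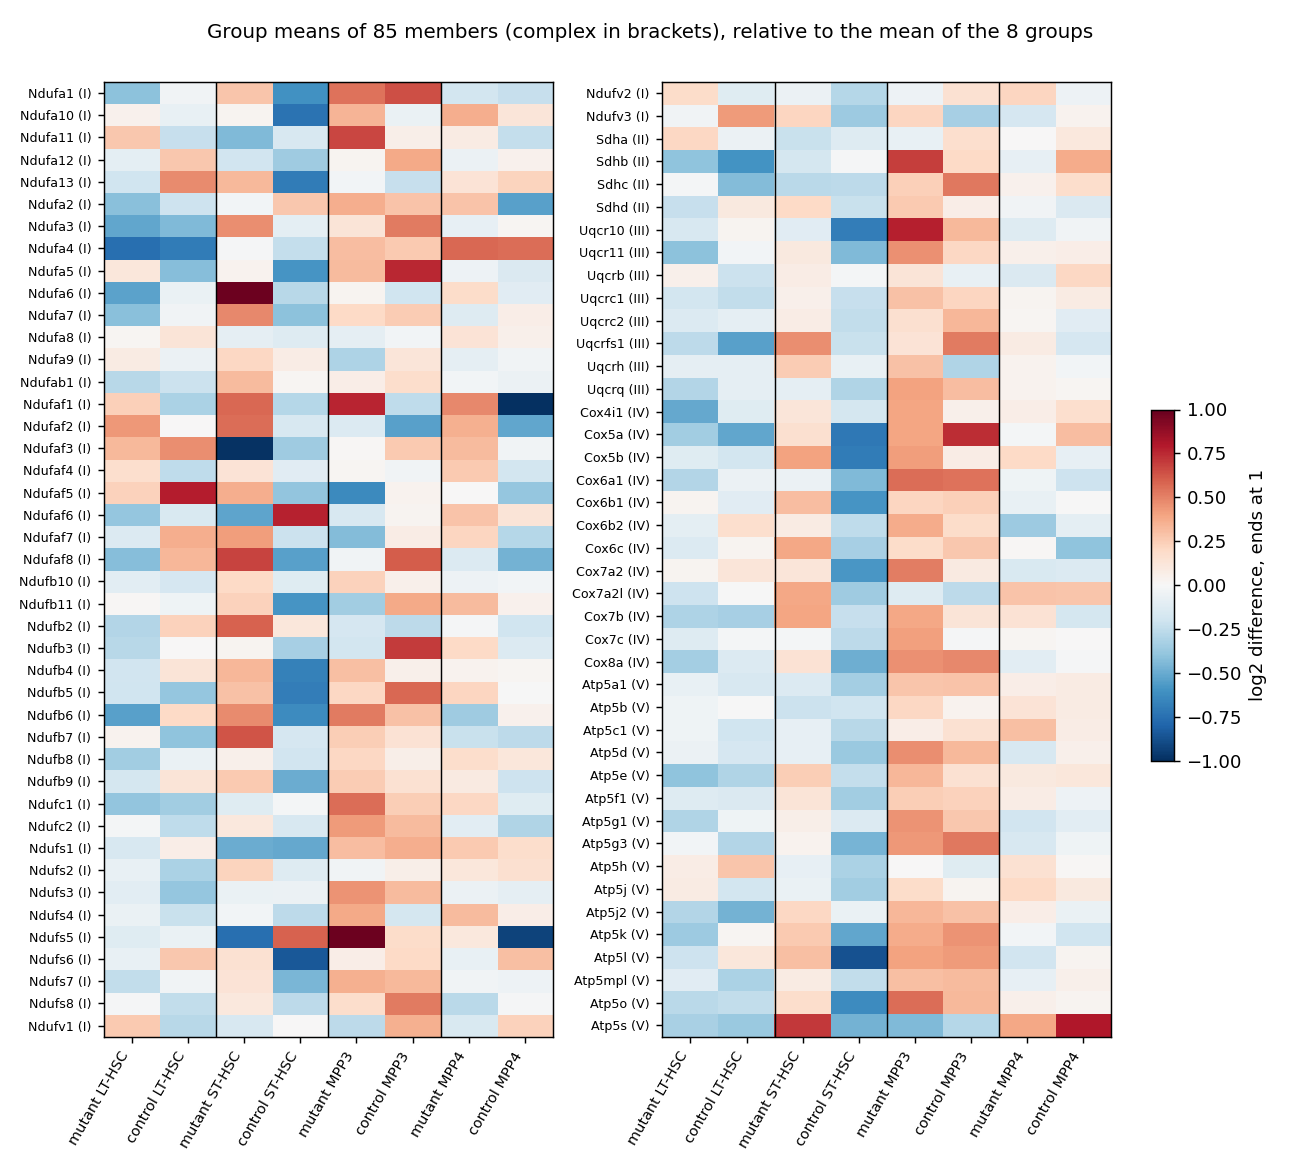
Group means of the 85 members tested in every comparison, as log2 of CPM plus 0.5 relative to the mean of the 8 groups, with members in rows by complex and groups in columns. Red marks higher and blue lower means, with colours ending at a difference of 1; most rows are blue in control ST-HSC, where 42 of the 85 members have their lowest mean.

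Several subunits of complexes IV and V exist as isoforms, and the libraries held mainly the broadly expressed ones. Cox4i1, the common form of COX4, a regulatory subunit of cytochrome c oxidase, had counts in all 29 libraries and stood at 50.7 CPM per kb, while Cox4i2, a form known from lung and from low oxygen, had counts in 19 and stood at 0.877 CPM per kb. Cox6a1 stood at 77.3 CPM per kb, and Cox6a2, the heart and muscle form, at 1.23 CPM per kb with counts in 22 libraries. Cox7a1, another heart and muscle form, had counts in 7 libraries, at most 8 counts in one, whereas Cox7a2 was counted in all 29, at 22.7 CPM per kb. Cox7a2l, a paralog of Cox7a2, was also counted in all 29, at 72.0 CPM per kb. Cox8b had 2 counts in 1 library, and Cox8c, a testis form, had none in any of the 29 libraries, where 3 counts correspond to 0.288 to 0.564 CPM. Cox6b2, known from testis, was counted in all 29 libraries at 11.2 CPM per kb, below Cox6b1 at 60.6 CPM per kb.

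The 3 genes for subunit c, which forms the rotating ring of the ATP synthase, encode the same mature protein with different import sequences. Atp5g3 stood at 31.5 CPM per kb and Atp5g1 at 21.8 CPM per kb of all exons, and at 95.2 and 22.8 CPM per kb of the principal transcript. Atp5g2 was listed at 0 in 26 of 29 libraries and had at most 20 counts in one. Expected counts divide reads between similar sequences, so the split between subunit c genes is uncertain, and the 0 of Atp5g2 may be an outcome of the counting; this was not tested. Ndufa4, now counted among the complex IV subunits though named for complex I, stood at 34.5 CPM per kb, and its paralog Ndufa4l2 had at most 3 counts in any library.

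**Figure D3:**
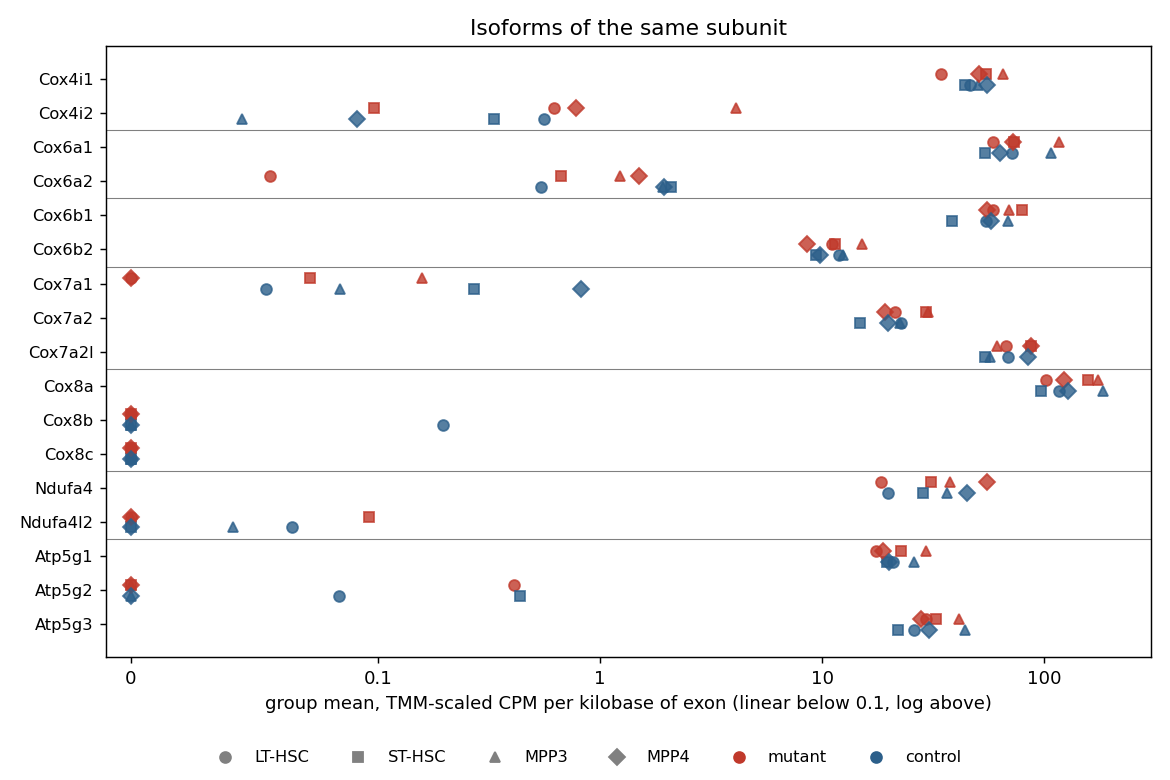
Level per kilobase of union exon, on an axis that is logarithmic above 0.1 and linear below, of isoforms and paralogs of the same subunit; each point is a group mean. Cox4i1 (50.7 CPM per kb over all libraries), Cox6a1 (77.3) and Cox8a (136) stand far above Cox4i2 (0.877), Cox6a2 (1.23) and Cox8b (0.0270).

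Promoters are shown for 3 members: Cox5a, the only member to pass the test anywhere, Cox6a1, whose window held matches to 3 of the 4 motifs searched, and Atp5g1, which came near the threshold. RefSeq promoter windows on GRCm38.p6, from 250 bases before to 50 after the start, were found for 74 of the 93 members, in 79 windows. The bases before the start are printed 5′ to 3′ in the direction of the gene, at chr9:57520982-57521231 on the plus strand for Cox5a, chr5:115348959-115349208 on the minus strand for Cox6a1 and chr11:96075632-96075881 on the minus strand for Atp5g1. Capitals mark matches, on either strand, to the letters searched for NRF1 (GCGC, any base, then TGCGC), ETS factors (CCGGAAG), YY1 (AAGATGGC) and SP1 (GGGCGG).
Cox5a: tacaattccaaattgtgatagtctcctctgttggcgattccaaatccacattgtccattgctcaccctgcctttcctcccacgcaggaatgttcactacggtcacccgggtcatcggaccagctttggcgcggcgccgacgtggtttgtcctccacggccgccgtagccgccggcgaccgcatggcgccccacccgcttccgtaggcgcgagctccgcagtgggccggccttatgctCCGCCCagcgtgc
Cox6a1: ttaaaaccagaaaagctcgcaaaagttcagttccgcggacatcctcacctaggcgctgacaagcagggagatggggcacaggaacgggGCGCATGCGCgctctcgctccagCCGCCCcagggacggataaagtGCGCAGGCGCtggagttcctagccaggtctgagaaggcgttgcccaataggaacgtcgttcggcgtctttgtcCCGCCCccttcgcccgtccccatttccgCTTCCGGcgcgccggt
Atp5g1: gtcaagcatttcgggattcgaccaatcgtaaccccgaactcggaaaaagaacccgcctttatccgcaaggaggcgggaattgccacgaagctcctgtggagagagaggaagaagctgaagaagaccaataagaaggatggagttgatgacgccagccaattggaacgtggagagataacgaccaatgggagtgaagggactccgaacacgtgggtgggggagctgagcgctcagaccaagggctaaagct
Cox5a held 1 SP1 match in this stretch, Cox6a1 2 NRF1, 2 SP1 and 1 ETS match, and Atp5g1 none. Among the 79 windows of members, 20 (25.3%) held the NRF1 letters, against 4.60% of all 32851 windows. Those were not limited to genes tested here. The ETS letters were held by 18 member windows (22.8%, against 8.86% of all windows), the YY1 letters by 10 (12.7%, against 2.75%) and the SP1 letters by 34 (43.0%, against 35.7%). These are matches of letters, not binding sites.

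Among the comparisons of control populations, 1 member, Cox5a, passed the test, in MPP3 against ST-HSC and against LT-HSC. Cox5a encodes a nuclear subunit of cytochrome c oxidase (ENSMUSG00000000088, GRCm38 chromosome 9, 57521274 to 57532426, plus strand). It stood at 39.5, 73.4 and 53.4 CPM in control MPP3 libraries, at 37.6, 49.3, 36.1 and 36.9 CPM in control MPP4, at 15.4, 19.2 and 24.2 CPM in control ST-HSC and at 30.9, 19.3, 25.2 and 15.8 CPM in control LT-HSC libraries. All control MPP3 and MPP4 libraries lay above all control ST-HSC and LT-HSC libraries. Cox5a rose in control MPP3 by a log2 difference of 1.49 against control ST-HSC (SE 0.317, adjusted p = 0.0195) and of 1.29 against control LT-HSC (SE 0.289, adjusted p = 0.0269; edgeR quasi-likelihood test, Benjamini-Hochberg over all genes tested). In control MPP4 the differences were 1.02 against control ST-HSC (SE 0.299, adjusted p = 0.0990) and 0.81 against control LT-HSC (SE 0.271, adjusted p = 0.106), which did not pass.

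Both calls of Cox5a were sensitive to single libraries. Leaving out any 1 of control LT-HSC replicates 2, 3 and 4 or control MPP3 replicates 2 and 3 ended the call against control LT-HSC, with adjusted p up to 0.187 and log2 differences of 1.03 to 1.48 over the 7 fits. Leaving out any 1 of control ST-HSC replicates 1 and 2 or control MPP3 replicates 2 and 3 ended the call against control ST-HSC, with adjusted p up to 0.0913 and log2 differences of 1.25 to 1.70 over the 6 edgeR fits. Without control LT-HSC replicates 1, 2 and 3, those with the highest neutrophil and red cell marker sums, the difference was 1.80 with an adjusted p of 0.132 from edgeR. Exons of Cox5a overlap those of Gm26631 on the other strand, and without a stated strand their reads cannot be told apart; Gm26631 was at 16.5 ± 6.34 CPM in control MPP3 (SD, n = 3), 6.07 ± 3.18 CPM in control ST-HSC (SD, n = 3) and 9.94 ± 2.98 CPM in control LT-HSC (SD, n = 4). Antibody-secreting cell markers were also higher in control MPP3 than in control LT-HSC libraries (1081 to 6302 against 64.9 to 339 CPM, 8 of 8 markers with counts in control MPP3). Their part in the difference was not tested.

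Between control MPP3 and control ST-HSC, 1 of 86 members tested passed, against 2.02% of all genes (302 of 14937), and 19 members, all higher, had an unadjusted p under 0.05 (15.8% of all genes). The median log2 difference of the members was 0.41 with 73 of 86 above 0, beside -0.04 for all genes. In 25 members every control MPP3 library lay above every control ST-HSC library, where 10.1% of all genes did so, and in 1, Uqcrh, every one lay below, where 9.3% did. By complex, the medians were 0.31 in complex I, 0.30 in complex II, 0.54 in complex III, 0.58 in complex IV (12 of 13 above 0) and 0.46 in complex V (16 of 16 above 0). Cox6a1, a small nuclear subunit of cytochrome c oxidase, had 51.2, 82.1 and 91.7 CPM in control MPP3 and 48.0, 40.8 and 24.7 CPM in control ST-HSC libraries. Its libraries did not overlap, at a log2 difference of 0.98 (SE 0.332, adjusted p = 0.143, edgeR). Ndufb5, an accessory subunit of complex I, differed by 1.27 (SE 0.428, adjusted p = 0.139, edgeR), and its exons overlap those of Mrpl47 on the other strand. Cycling markers summed to 2384 to 2948 CPM in control MPP3 and 685 to 1343 CPM in control ST-HSC libraries, with 5 of 10 past the test; their part in the members' difference was not tested.

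Between control MPP3 and control LT-HSC, 1 of 86 members passed, against 1.46% of all genes, and 7 had an unadjusted p under 0.05 (13.1% of all genes), all higher. The median was 0.31 with 67 of 86 above 0, beside -0.02 for all genes. Without control LT-HSC replicates 1, 2 and 3, those with the highest neutrophil and red cell marker sums, it was 0.62, against 1 remaining control LT-HSC library. Without replicate 1 alone it was 0.48. Cycling markers overlapped there, at 2384 to 2948 CPM in control MPP3 and 1753 to 4497 CPM in control LT-HSC libraries. The part of neutrophil, red cell and cycling markers was not tested. In 7 members all control MPP3 libraries lay above all control LT-HSC libraries (6.34% of all genes), and in 2, Ndufa13 and Ndufb2, all lay below (6.43%). Ndufs8, an iron-sulfur subunit of complex I, had 24.8, 36.8 and 23.0 CPM in control MPP3 and 15.9, 15.2, 15.9 and 16.9 CPM in control LT-HSC libraries. The LT-HSC values were nearly equal and all lay below the MPP3 values, at a log2 difference of 0.82 (SE 0.291, adjusted p = 0.200, edgeR). Sdhc, a membrane anchor of complex II, had 64.5, 174 and 77.3 CPM in control MPP3 and 69.5, 33.6, 71.2 and 33.5 CPM in control LT-HSC libraries, where 1 high library sets the mean and the groups overlap (log2 difference 1.03, SE 0.353, adjusted p = 0.191, edgeR).

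Here and below, shares of all genes past the test or under an unadjusted p of 0.05 are from edgeR. DESeq2 calls are given without such a share, so they cannot be set against all genes. Between control MPP4 and control ST-HSC, 0 of 86 members passed by edgeR (1.66% of all genes), 5 had an unadjusted p under 0.05 (14.9% of all genes) and DESeq2 called 1, Cox5a. The median was 0.28 with 62 of 86 above 0, and 6 members were higher without overlap (6.25% of all genes) and 1 lower (5.75%). The 1 lower was Ndufs5, an accessory subunit of complex I, with 2.87, 1.73, 1.202 and 3.58 CPM in control MPP4 and 8.74, 4.52 and 9.23 CPM in control ST-HSC libraries. Its log2 difference of -1.68 (SE 0.582, adjusted p = 0.169, edgeR) rests on low counts. Between control MPP4 and control LT-HSC, 0 of 86 passed by edgeR (4.2% of all genes), 6 had an unadjusted p under 0.05 (15.5% of all genes) and DESeq2 called 1, Ndufa4. The median was 0.08 with 54 above 0, 4 members were higher without overlap (4.73% of all genes) and 0 lower (4.98%). That median changed sign, to -0.03, without control LT-HSC replicate 4, and was 0.26 without control LT-HSC replicate 1. Ndufa4 had 66.1, 70.8, 37.3 and 73.8 CPM in control MPP4 and 46.9, 20.9, 26.3 and 14.7 CPM in control LT-HSC libraries, a log2 difference of 1.197 (SE 0.380, adjusted p = 0.0900, edgeR). Only control LT-HSC replicate 1 reached into the MPP4 range, and without it the difference was 1.58 with an adjusted p of 0.0249 (edgeR). Leaving out any other single library of the 2 groups did not make Ndufa4 pass. Its log2 differences were then 0.98 to 1.38, with adjusted p of 0.0655 to 0.240 (edgeR). Sdhb, the iron-sulfur subunit of complex II, had 24.6, 20.4, 29.3 and 36.4 CPM in control MPP4 and 19.3, 12.6, 18.1 and 7.76 CPM in control LT-HSC libraries; these did not overlap (log2 difference 0.94, SE 0.337, adjusted p = 0.140, edgeR).

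Between control MPP4 and control MPP3, 0 of 86 members passed by edgeR (1.14% of all genes), 4 had an unadjusted p under 0.05 (11.1% of all genes), all lower, and DESeq2 called 0. The median was -0.22 with 24 of 86 above 0 (-0.35 without control MPP3 replicate 1 and -0.13 without replicate 2). In all, 5 members (Cox6c, Ndufaf8, Ndufb3, Ndufb11 and Atp5l) were lower in every control MPP4 library, where 6.37% of all genes were; 0 were higher in every one (6.23%). Cox6c, a small structural subunit of cytochrome c oxidase, had 39.9, 41.4, 31.0 and 34.4 CPM in control MPP4 and 49.7, 63.9 and 62.7 CPM in control MPP3 libraries (log2 difference -0.68, SE 0.260, adjusted p = 0.273, edgeR). Exons of Cox6c overlap those of Vps13b on the other strand. Between control ST-HSC and control LT-HSC, 0 of 86 passed by edgeR (0.174% of all genes), 2 had an unadjusted p under 0.05 (10.1% of all genes), both lower, and DESeq2 called 0. The median was -0.14 with 26 above 0, and it was 0.12 without control LT-HSC replicates 1, 2 and 3. Ndufa12 and Cox7a2 were lower in every control ST-HSC library (4% of all genes), and no member was higher in every one (3.55%).

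**Figure D4:**
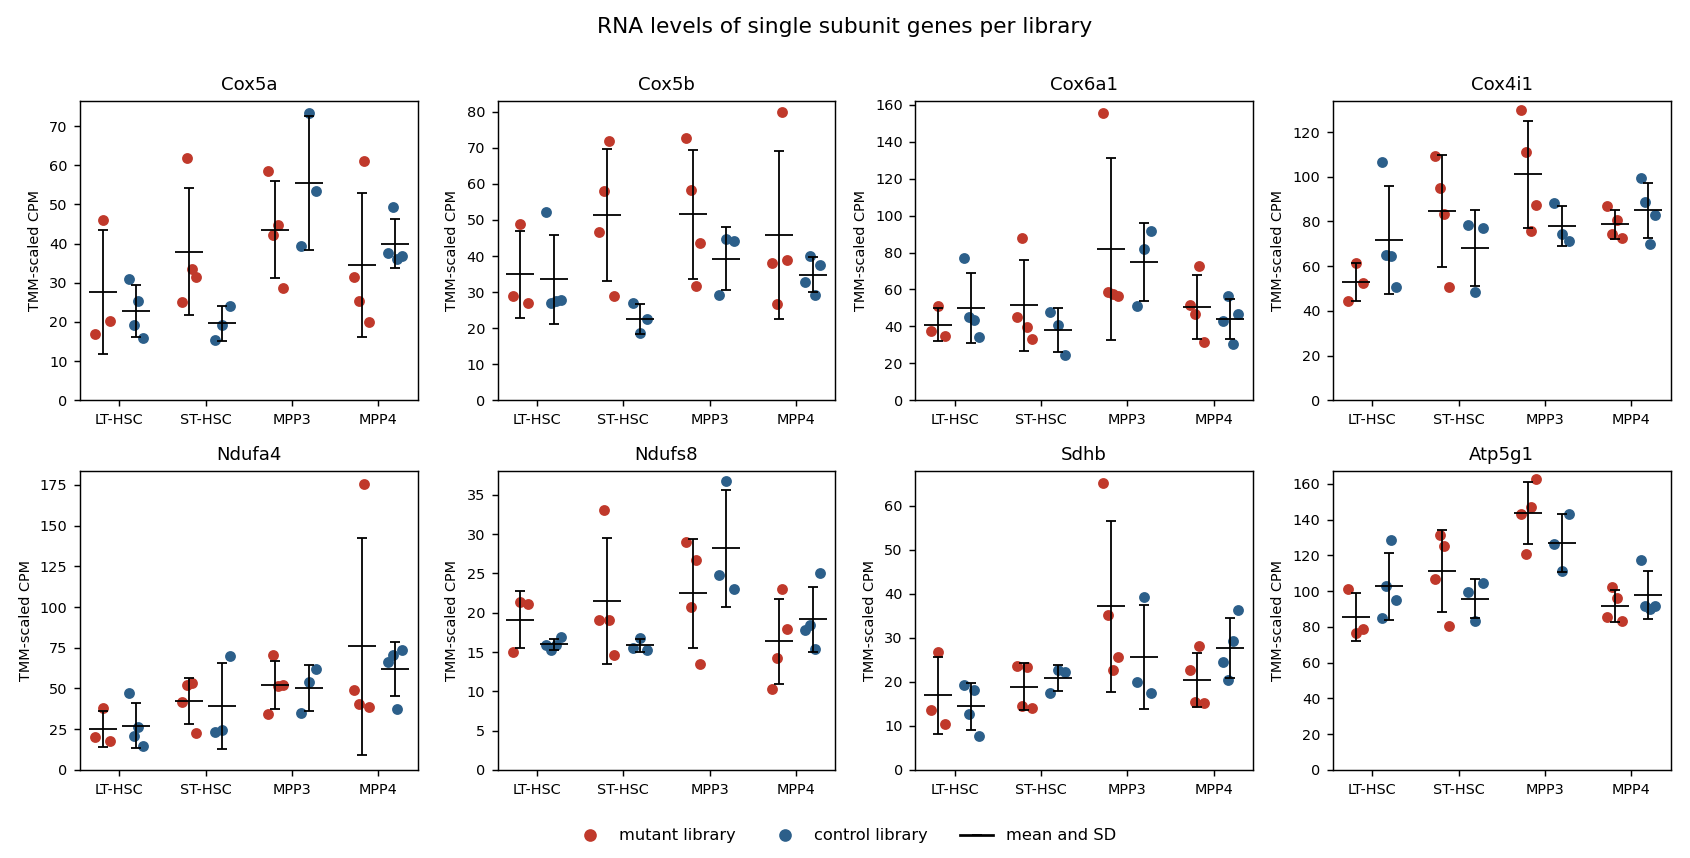
TMM-scaled CPM of 8 members in each library (points), by population on the horizontal axis, with mutant left of control; horizontal lines are group means and whiskers 1 SD. Control MPP3 points of Cox5a (39.5 to 73.4 CPM) lie above those of control ST-HSC (15.4 to 24.2 CPM), while the mutant points of these populations overlap.

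Between mutant MPP3 and mutant LT-HSC, of 87 members tested, 0 passed by edgeR (3.09% of all genes), 10 had an unadjusted p under 0.05 (14.1% of all genes), all higher, and DESeq2 called 2, Atp5g1 and Cox4i1. The median log2 difference was 0.43 with 72 of 87 above 0, 15 members were higher in every mutant MPP3 library (7.84% of all genes) and 0 were lower (7.7%). By complex the medians were 0.36 in complex I, 0.38 in complex II, 0.44 in complex III, 0.58 in complex IV (13 of 14 above 0) and 0.43 in complex V. Atp5g1, a subunit c gene, had 143, 121, 147 and 163 CPM in mutant MPP3 and 101, 76.6 and 78.6 CPM in mutant LT-HSC libraries. Its log2 difference was 0.73 (SE 0.205, adjusted p = 0.0579, edgeR). Cox4i1 had 130, 111, 75.8 and 87.5 CPM in mutant MPP3 and 44.6, 61.4 and 52.5 CPM in mutant LT-HSC libraries, a log2 difference of 0.91 (SE 0.262, adjusted p = 0.0648, edgeR). Both genes separated the groups completely; exons of Cox4i1 overlap those of Emc8 on the other strand. Uqcr10, a small subunit of complex III, had 67.2, 22.1, 23.0 and 34.9 CPM in mutant MPP3 and 15.6, 16.4 and 19.3 CPM in mutant LT-HSC libraries (log2 difference 1.08, SE 0.428, adjusted p = 0.225, edgeR). Antibody-secreting cell markers summed to 1344 to 15032 CPM in mutant MPP3 and 84.0 to 169 CPM in mutant LT-HSC libraries, with Mzb1 at 0 in the mutant LT-HSC libraries, and cycling markers to 2622 to 2931 against 1494 to 2010 CPM; their part was not tested.

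In the mutants, Cox5a had 58.6, 42.3, 44.8 and 28.6 CPM in mutant MPP3, 31.5, 25.2, 61.2 and 20.0 CPM in mutant MPP4, 25.1, 61.9, 33.6 and 31.4 CPM in mutant ST-HSC and 16.8, 45.95 and 20.1 CPM in mutant LT-HSC libraries. One library in each of mutant LT-HSC, ST-HSC and MPP4 stood above the rest of its group, and all mutant populations overlapped. The log2 differences of mutant MPP3 were 0.63 against mutant LT-HSC (SE 0.433, adjusted p = 0.580) and 0.19 against mutant ST-HSC (SE 0.396, adjusted p = 0.860, edgeR). A test of whether the mutant effect on Cox5a differed between the 4 populations did not pass (adjusted p = 0.904, edgeR), so no difference between the genotypes was shown.

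Between mutant MPP4 and mutant LT-HSC, 0 of 87 members passed by edgeR (2.17% of all genes), 3 had an unadjusted p under 0.05 (10.4% of all genes), and DESeq2 called 1, Ndufa4. The median was 0.22 with 70 above 0 (0.05 without mutant MPP4 replicate 3, 0.12 and 0.37 without mutant LT-HSC replicates 1 and 2), 5 members were higher without overlap (6.43% of all genes) and 0 lower (7.31%). Ndufa4 had 48.8, 40.8, 175 and 38.5 CPM in mutant MPP4 and 20.4, 38.01 and 17.6 CPM in mutant LT-HSC libraries, a log2 difference of 1.57 (SE 0.487, adjusted p = 0.120, edgeR). Without mutant MPP4 replicate 3, the highest library, the difference of Ndufa4 was 0.74. Between mutant ST-HSC and mutant LT-HSC, 0 of 87 passed by edgeR (0.298% of all genes), 6 had an unadjusted p under 0.05 (7.94% of all genes), all higher, and DESeq2 called 0. The median was 0.33 with 66 above 0 (0.18 without mutant ST-HSC replicate 2, which has under 15000 genes, and 0.49 without mutant LT-HSC replicate 2), 4 members were higher without overlap (3.7% of all genes) and 0 lower (4.56%). Cycling markers went the other way, summing to 814 to 1109 CPM in mutant ST-HSC and 1494 to 2010 CPM in mutant LT-HSC libraries. Their part was not tested.

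Between mutant MPP3 and mutant ST-HSC, of 87 members, 0 passed by edgeR (4.4% of all genes), 11 had an unadjusted p under 0.05 (18% of all genes), 7 higher and 4 lower, and DESeq2 called 1, Cox4i2. The median was 0.09 with 54 above 0, and leaving out 1 library moved it between -0.04 (without mutant ST-HSC replicate 4) and 0.23 (without mutant ST-HSC replicate 2). Of the members, 4 were higher without overlap (5.95% of all genes), and 2, Ndufb2 and Cox7a2l, were lower (4.19%). Cox4i2 had 0.928, 0.121, 1.51 and 10.3 CPM in mutant MPP3 libraries and 0, 0, 0.311 and 0 CPM in mutant ST-HSC libraries. Its high value came from 92 counts in mutant MPP3 replicate 4, and the mutant ST-HSC values lie at or under the level of 3 counts. Between mutant MPP4 and mutant ST-HSC, 0 of 87 passed by edgeR (2.33% of all genes), 2 had an unadjusted p under 0.05 (13.2% of all genes) and DESeq2 called 0; the median was -0.12 with 31 above 0 (-0.25 without mutant MPP4 replicate 3, above 0 without mutant MPP4 replicate 4 or mutant ST-HSC replicate 3), and Atp5c1 was the 1 member higher without overlap (4.53% of all genes), with 0 lower (3.7%). Between mutant MPP4 and mutant MPP3, 0 of 87 passed by edgeR (1.37% of all genes), 4 had an unadjusted p under 0.05 (11.5% of all genes) and DESeq2 called 1, Atp5g1; the median was -0.19 with 27 above 0 (-0.42 and -0.09 without mutant MPP4 replicates 3 and 4). Atp5g1 was the 1 member lower in every mutant MPP4 library (85.5, 102, 96.1 and 83.6 CPM, against 143, 121, 147 and 163 CPM in mutant MPP3; 4.25% of all genes), at a log2 difference of -0.63 (SE 0.187, adjusted p = 0.130, edgeR), and Ndufaf7 the 1 higher (3.17%).

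Control and mutant libraries are separate, so the population differences can be set side by side for the 86 members tested in both. In MPP3 against LT-HSC, 59 members were above 0 in both genotypes and 7 below 0 in both. In MPP3 against ST-HSC, 47 were above 0 in both, 7 below in both, and 26 above 0 in controls and below in mutants. In ST-HSC against LT-HSC, 47 were above 0 in mutants and below in controls, and 19 were above in both. In MPP4 against MPP3, 49 were below 0 in both. No such counts over all genes are given beside these, so they describe the members without setting them apart from other genes.

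Within populations, no member passed the test between Dnmt3a mutant and control libraries. In ST-HSC, 0 of 85 members passed by edgeR (0% of all 13381 genes), 7 had an unadjusted p under 0.05 (3.73% of all genes), all higher in mutants, and DESeq2 called 0. The median log2 difference was 0.41 with 73 of 85 above 0, beside 0.01 for all genes. By complex it was 0.44 in complex I, -0.03 in complex II, 0.34 in complex III (8 of 8 above 0), 0.73 in complex IV (12 of 12) and 0.33 in complex V (15 of 16). The 5 members higher in every mutant library were Cox5b, Ndufb5, Cox5a, Ndufb4 and Ndufb6, and 0 were lower; 2.44% of all genes were higher without overlap and 2.44% lower. Cox5b, a zinc-binding subunit of cytochrome c oxidase, had 46.5, 58.1, 72.0 and 28.8 CPM in mutant ST-HSC and 26.9, 18.5 and 22.4 CPM in control ST-HSC libraries. The lowest mutant library lay just above the highest control library, and the log2 difference was 1.18 (SE 0.369, adjusted p = 0.998, edgeR). Cox5a differed by 0.95 there (SE 0.400, adjusted p = 0.998, edgeR). The 80 cytosolic ribosomal protein genes had a median of 0.59, with all 80 above 0 and none past the test. Without the libraries under 15000 genes, the members' median was 0.28.

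In LT-HSC, 0 of 85 members passed by edgeR (0% of all 13922 genes), 0 had an unadjusted p under 0.05 (8.16% of all genes) and DESeq2 called 0. The median was -0.06 with 34 above 0, but 0.14 without control LT-HSC replicate 1 and 0.03 without mutant LT-HSC replicate 1. No member separated the groups in either direction (3.87% of all genes higher, 3.44% lower). Cox4i1 had 44.6, 61.4 and 52.5 CPM in mutant LT-HSC and 107, 64.8, 64.6 and 50.7 CPM in control LT-HSC libraries, a log2 difference of -0.45 (SE 0.262, adjusted p = 0.711, edgeR). Without replicates 1, 2 and 3 of control LT-HSC, those with the highest neutrophil and red cell marker sums, the members' median was 0.32 and the difference of Cox4i1 was 0.07, from 1 control library.

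In MPP3, 0 of 85 members passed by edgeR (0.00737% of all genes, 1 gene), 0 had an unadjusted p under 0.05 (2.18% of all genes) and DESeq2 called 0. The median was 0.10 with 52 above 0, 0.01 without mutant MPP3 replicate 1, which has under 15000 genes, and -0.03 without control MPP3 replicate 1. Uqcrh, the hinge protein of complex III, had 93.3, 53.9, 40.2 and 42.3 CPM in mutant MPP3 and 29.9, 38.6 and 39.0 CPM in control MPP3 libraries. These did not overlap, but the lowest mutant and highest control libraries nearly met (log2 difference 0.68, SE 0.333, adjusted p = 1.000, edgeR). Uqcrh and Ndufa11 were the 2 members higher without overlap, where 2.32% of all genes were, and 0 were lower (2.12%). In MPP4, 0 of 86 members passed by edgeR (0% of all 13108 genes), 1 had an unadjusted p under 0.05 (3.1% of all genes) and DESeq2 called 0. The median was 0.07 with 56 above 0, but -0.11 without mutant MPP4 replicate 3 and below 0 without control MPP4 replicate 3. Its sign differed between the 2 prefixes of the column headers. Ndufaf7 was the 1 member higher without overlap (0.999% of all genes), with 0 lower (1.34%). The member under 0.05 was Ndufaf1, an assembly factor of complex I, with 8.59, 18.4, 3.88 and 5.32 CPM in mutant MPP4 and 0.957, 5.76, 1.95 and 1.39 CPM in control MPP4 libraries (log2 difference 1.84, SE 0.653, adjusted p = 0.999, edgeR).

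Averaged over the 4 populations, the mutant effect passed in 0 of 87 members by edgeR (0.0189% of all 15915 genes), 6 had an unadjusted p under 0.05 (7.51% of all genes) and DESeq2 called 1, Ndufaf1. The median was 0.12 with 75 of 87 above 0, including 16 of 16 in complex V, 8 of 8 in complex III and 13 of 14 in complex IV. For all genes the median was -0.001, with 49.7% above 0. Fitted alone, the populations had unequal members' medians, 0.41 in ST-HSC, 0.10 in MPP3, 0.07 in MPP4 and -0.06 in LT-HSC. All but that of ST-HSC changed sign when certain single libraries were left out. Ndufaf1 differed on average by 1.21 (SE 0.338, adjusted p = 0.195, edgeR) and overlapped between genotypes in each population. In the other populations it stood at 32.8, 4.25, 7.53 and 7.07 CPM in mutant MPP3 and 3.27, 3.03 and 8.37 CPM in control MPP3 libraries, at 14.0, 3.20, 9.17 and 10.6 CPM in mutant ST-HSC and 3.93, 3.96 and 5.09 CPM in control ST-HSC libraries, and at 8.02, 5.76 and 5.61 CPM in mutant LT-HSC and 7.30, 3.45, 3.17 and 3.81 CPM in control LT-HSC libraries. Cox5b differed on average by 0.51 (SE 0.172, adjusted p = 0.394, edgeR). The test of whether the mutant effect differed between populations called 0 of 87 members (0% of all genes) with edgeR and 0 with DESeq2, and 3 had an unadjusted p under 0.05 (5.82% of all genes; Cox4i2, Ndufaf7 and Ndufaf8).

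**Figure D5:**
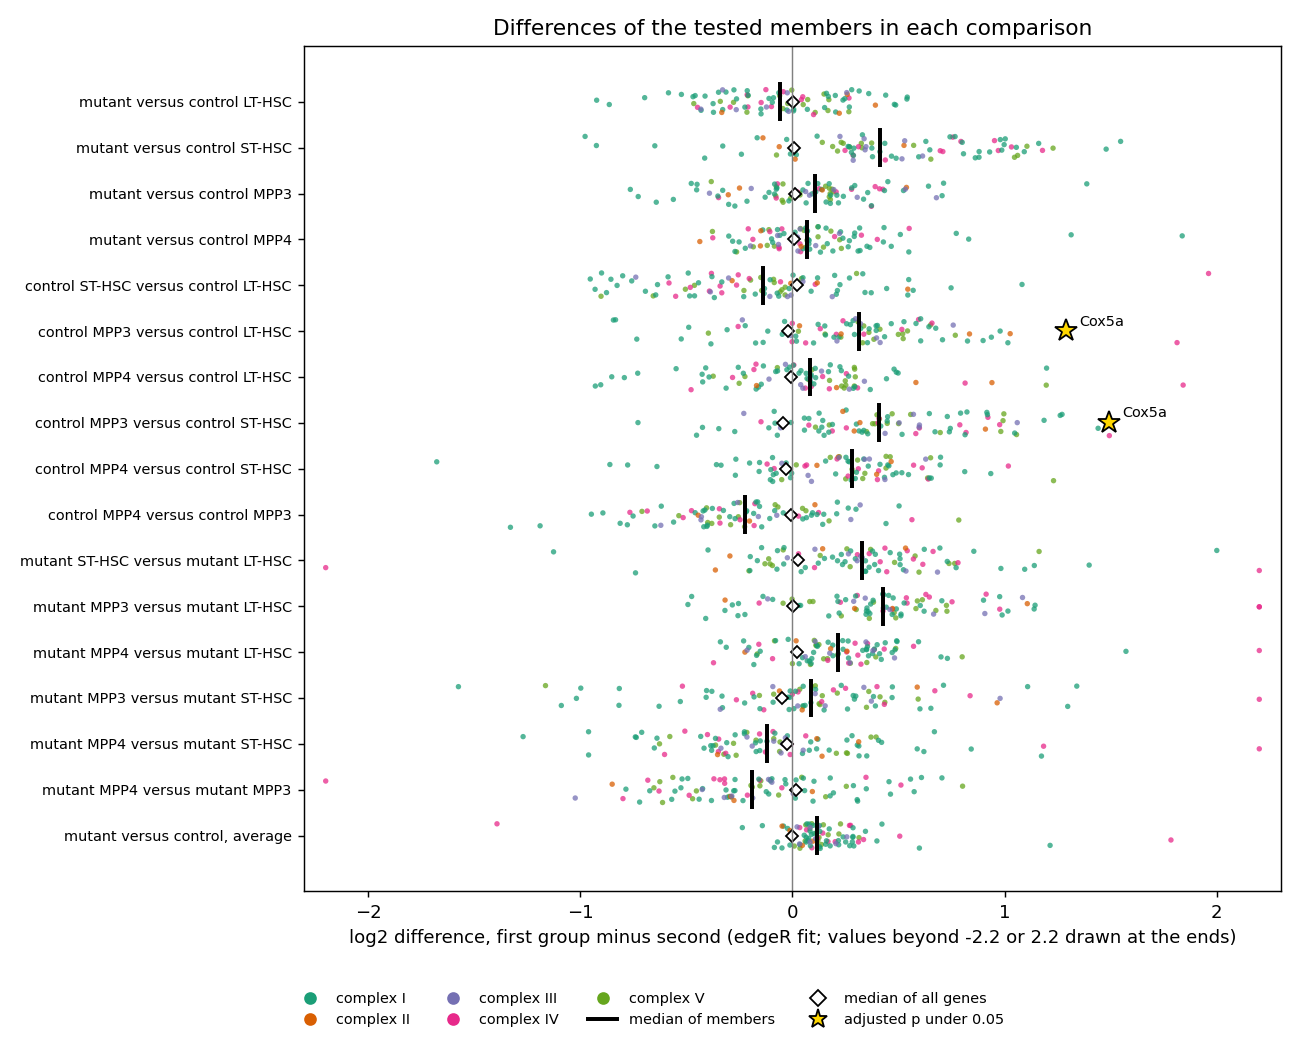
Log2 differences of the tested members (points, 1 per member) in each comparison, first group minus second, with the median of the members as a black line, that of all genes as a diamond, and members past the test as stars; values beyond 2.2 are drawn at the ends. The members' medians are furthest above 0 in mutant MPP3 against mutant LT-HSC (0.43), control MPP3 against control ST-HSC (0.41) and mutant against control ST-HSC (0.41), while the medians of all genes stay within 0.05 of 0.

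Column headers carry 1 of 2 prefixes whose meaning is not stated, in 14 and 15 libraries, and both occur in every group. Within the first and the second prefix the members' median in control MPP3 against control ST-HSC was 0.24 and 0.57, in control MPP3 against control LT-HSC -0.08 and 0.60, in mutant MPP3 against mutant LT-HSC 0.42 and 0.54, and in mutant against control ST-HSC 0.64 and 0.25. Some of these rest on 1 library in an arm: control MPP3 and mutant LT-HSC have 1 library each with the first prefix, and control ST-HSC 1 with the second, so they are given without a test. Cox5a differed by 0.69 and 1.63 in control MPP3 against control LT-HSC and by 1.19 and 1.36 in control MPP3 against control ST-HSC. In mutant against control MPP4 the 2 medians had opposite signs, -0.15 and 0.27, and so did those of mutant against control LT-HSC, -0.27 and 0.13. Opposite signs were also found in control MPP4 against control MPP3, 0.10 and -0.50, and in mutant MPP3 against mutant ST-HSC, -0.15 and 0.34. The same held for mutant MPP4 against mutant ST-HSC, -0.22 and 0.11, and for control MPP3 against control LT-HSC, given above.

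Other genes of mitochondrial respiration were read from fixed lists. The 13 mitochondria-encoded subunits had a median of 0.63 in mutant MPP3 against mutant LT-HSC, with 13 of 13 above 0, and 1 of them passed: mt-Nd1, a core subunit of complex I, averaged 2521 ± 595 CPM in mutant MPP3 (SD, n = 4) and 1093 ± 510 CPM in mutant LT-HSC (SD, n = 3), a log2 difference of 1.18 (SE 0.311, adjusted p = 0.0423, edgeR). In control MPP3 against control LT-HSC their median was -0.01 and 0 of 13 passed. In mutant against control LT-HSC all 13 were below 0, at a median of -0.34, and in mutant against control ST-HSC 12 of 13 were above 0, at a median of 0.50, with 0 past the test in both. Of 40 further nuclear genes of the respiratory chain and its assembly, 0 passed in any comparison, with a median of 0.32 in control MPP3 against control LT-HSC. Among 15 genes of the tricarboxylic acid cycle, whose NADH and succinate feed complexes I and II, the median there was 0.42 with 14 of 15 above 0, and 1 passed in control MPP3 against control ST-HSC: Ogdh, a subunit of the 2-oxoglutarate dehydrogenase complex, at 154 ± 25.7 CPM in control MPP3 and 73.6 ± 23.7 CPM in control ST-HSC (SD, n = 3 each; log2 difference 1.06, SE 0.249, adjusted p = 0.0322, edgeR). Of 14 regulators of mitochondrial biogenesis 1 passed, the transcription factor Myc, which averaged 398 ± 119.6 CPM in control MPP4 and 208 ± 48.8 CPM in control LT-HSC (SD, n = 4 each; log2 difference 0.93, SE 0.231, adjusted p = 0.0233, edgeR). The 77 mitochondrial ribosomal protein genes had medians of 0.30 and 0.32 in control MPP3 against control LT-HSC and against control ST-HSC, close in size to the members' medians, with 0 past the test.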

How the data were processed

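The data are expected counts per gene from polyA RNA of 29 libraries, deposited as whole numbers for 38924 Ensembl identifiers. The submitters' processing notes name the aligner Bowtie2 2.2.0, the quantifier RSEM 1.2.12, edgeR 3.5.3, SAMtools 0.1.18 and the build GRCm38 in no stated order; no source used here gives the strand used in counting. Symbols came from GENCODE M21 for 37607 identifiers; the 1317 without one, 0.870% to 1.25% of counts, stayed in the fits.

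Groups came from the titles and, for genotype, the letter in the descriptions. The members and gene lists were chosen with earlier results of these data known. Each comparison was tested with edgeR 4.0.16 in R 4.3.3 (TMM, filterByExpr with a minimum count of 10 and total of 15, robust quasi-likelihood fit with prior degrees of freedom as in earlier versions). Mutant and control were compared within each population alone, populations within each genotype in 1 fit, and the average effect and its differences between populations over all libraries. P-values were adjusted by Benjamini-Hochberg over all genes tested, with 0.05 as threshold; log2 differences are the first group minus the second, and SE values derive from the fit. Levels are CPM after TMM scaling. Genes without overlap are those with every library of 1 group beyond every library of the other.

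Alternatives were DESeq2 1.42.0 and its size factors, no filter on low counts, a gene length trend removed, the header prefix as a covariate, other edgeR options, replicate blocks (limma 3.58.1 for the random block), and each library left out. Replicate pairs differed by 20.3 to 72.4 times their counting noise (chi-square per degree of freedom, 39 pairs), so no pair agreed within counting noise. Members named are those past the threshold, the 3 with the smallest p in each direction per comparison, core subunits of each complex and isoforms; of these, those that the results turn on have their values given, and members without overlap were named after their values were seen. The edgeR step was tested on simulated counts. Exons of 32 members overlap another gene's exons, 19 of them those of a gene on the other strand with over 500 counts in all, so their reads may be shared.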

Additional observations from a re-analysis of the deposited data

Results flagged for a closer look

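In 105 groups of 4 values, 14 held a library whose gap to the nearest other exceeded Dixon's critical value, where chance gives about 1 in 20. Nothing was tested about their causes.

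Mutant MPP3 replicate 1, a library under 15000 genes, stood apart in the summed level of complex III (375 CPM, against 279 to 293 CPM in the other mutant MPP3 libraries), in Cox6a1 (156 CPM, against 56.2 to 58.5 CPM) and in Ndufaf1 (32.8 CPM, against 4.25 to 7.53 CPM). Mutant MPP4 replicate 3 stood apart in the summed level of complex IV (1018 CPM, against 562 to 615 CPM in the others) and in Ndufa4 (175 CPM, against 38.5 to 48.8 CPM). Mutant MPP4 replicate 2 stood apart in Atp5b (853 CPM, against 562 to 575 CPM) and Uqcr10 (25.7 CPM, against 15.1 to 15.5 CPM). Control LT-HSC replicate 1, the library with the highest late neutrophil and red cell marker sums, stood apart in Cox5b (52.1 CPM, against 26.9 to 27.8 CPM), Ndufaf1 (7.30 CPM, against 3.17 to 3.81 CPM) and Uqcrh (60.2 CPM, against 34.2 to 38.4 CPM). In control MPP4, replicate 2 was high in Cox5a (49.3 CPM, against 36.1 to 37.6 CPM) and in the summed level of complex II (452 CPM, against 269.9 to 296 CPM), replicate 1 in Atp5g1 (118 CPM, against 90.2 to 91.8 CPM), and replicate 3 was low in the summed level of complex III (189 CPM, against 265 to 273 CPM). No test of a difference of the mutant effect between populations passed for any of the 87 members.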

How the results depend on the processing

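Under alternatives that kept all libraries, the members' medians kept their sign in the 17 comparisons that have a direction. The replicate block (number in the descriptions) left 0 members called in control MPP3 against control LT-HSC and 0 against control ST-HSC, with adjusted p for Cox5a of 0.0656 and 0.0509. Pairs sharing a description number, which recurs within a genotype only, correlated at -0.152 to 0.175 (both pairs of control MPP3 and ST-HSC at 0.140 and 0.175). Pairs of mutant and control libraries sharing a title replicate number correlated at -0.175 to 0.0915. In 0 of the 15 comparisons with 3 or more pairs were all pairs above 0.1, or did every library correlate best with its own number, and both numbers were treated as no pairing. In control MPP3 against control ST-HSC, with only 2 pairs, all 4 libraries correlated best with their own description number. Over all genes the description block lowered the calls of control MPP3 against control ST-HSC to 181, from 302. The title block gave 404 calls in mutant against control LT-HSC, from 0. That block kept only replicate numbers present in both genotypes, so it left out control LT-HSC replicate 4. This was the control LT-HSC library with the lowest late neutrophil and red cell marker sums. The parts of the block and of the library left out were not tested. DESeq2 called 1 member each in control MPP4 against LT-HSC and against ST-HSC, mutant MPP4 against LT-HSC and against MPP3, mutant MPP3 against ST-HSC and the average mutant effect, and 2 in mutant MPP3 against LT-HSC. In that last comparison the length trend gave 1 and the newer edgeR fit 2; the newer fit gave 1 in mutant MPP3 against ST-HSC.

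The following 2 alternatives were added after seeing the data. Without control LT-HSC replicates 1, 2 and 3 together, leaving 1 control LT-HSC library assumed to vary like the other groups, 0 members were called in control MPP3 against LT-HSC, whose median was 0.62, and the medians of control MPP4 against LT-HSC and mutant against control LT-HSC were 0.37 and 0.32; Cox4i1 (mutant against control, 0.067), Cox6c (control MPP4, 0.018) and Cox5a (control ST-HSC, 0.30) changed sign against LT-HSC. Without the libraries under 15000 genes, Ndufv1 (average effect, 0.012) and Cox5a (mutant MPP4 against ST-HSC, 0.21) changed sign. An alternative without control MPP3 libraries over 100 CPM of Jchain was not run, since all 3 exceed it.

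Leaving out 1 library gave 0 to 1 members called in control MPP3 against LT-HSC, control MPP4 against LT-HSC, control MPP3 against ST-HSC and mutant MPP3 against ST-HSC (Cox4i2, without mutant ST-HSC replicate 3 or mutant MPP3 replicate 2), and a median of -0.42 to -0.090 in mutant MPP4 against MPP3. The median changed sign in mutant against control LT-HSC (-0.21 to 0.14; above 0 without control or mutant LT-HSC replicate 1), MPP3 (-0.029 to 0.14; below 0 without control MPP3 replicate 1) and MPP4 (-0.11 to 0.15; below 0 without mutant or control MPP4 replicate 3), control MPP4 against LT-HSC (-0.032 to 0.26; below 0 without control LT-HSC replicate 4), mutant MPP3 against ST-HSC (-0.038 to 0.23; below 0 without mutant ST-HSC replicate 4) and mutant MPP4 against ST-HSC (-0.25 to 0.015; above 0 without mutant MPP4 replicate 4 or mutant ST-HSC replicate 3). Signs changed for Atp5d in mutant against control MPP4 (-0.41 to 0.039), Cox6a2 in control ST-HSC against LT-HSC (-4.61 to 3.04) and in the average effect (-1.90 to 0.24), Cox6b2 in mutant MPP4 against LT-HSC (-0.72 to 0.24), Ndufv1 in the average effect (-0.17 to 0.015), and Cox5a in mutant against control LT-HSC (-0.31 to 0.53), mutant MPP4 against LT-HSC (-0.12 to 0.90) and mutant MPP4 against ST-HSC (-0.55 to 0.21). The causes were not tested. Of the other counts and medians under alternatives, 598 stayed within the limits set for a change.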
